A study of Mus musculus with 6 samples.

Results

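Expression of 10 genes of the roof plate and the bone morphogenetic protein (BMP) pathway was followed through 6 RNA-seq libraries of mouse neural progenitor cells (NPCs), out of 51733 gene symbols counted. The genes were taken by name, and all 10 were in the count tables: the ligands Gdf7, Bmp4, Bmp6 and Bmp7, the antagonist Chrd, and the response genes Id1, Id3, Msx1, Msx2 and Msx3. The cells were Sox2-positive, sorted with a Sox2-eGFP reporter that embryos of both genotypes carried, from neural tubes of C57BL/6 embryos at E13.5. The libraries named here control 1 to 3 came from wildtype siblings, and those named Ybx1-KO 1 to 3 from embryos homozygous for the Ybx1tm1Ley null allele. The labels name no treatment. Ybx1 is a nucleic acid-binding protein, and the allele is carried by every cell of the embryo and not by NPCs alone. The labels do not say whether each library was a separate embryo, so p-values measure the spread between these libraries, part of which may be technical.

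The roof plate is the narrow strip of cells at the dorsal midline of the neural tube, and it secretes BMP and WNT ligands that pattern the dorsal neural tube. BMP ligands bind pairs of type I and type II receptors, which phosphorylate Smad1, Smad5 and Smad9, and these enter the nucleus with Smad4 and switch on genes such as the Id and Msx families. Secreted antagonists such as chordin, the product of Chrd, bind the ligands and keep them from the receptors.

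The libraries held 4743279 to 23883542 counts on genes, with Ybx1-KO 3 the shallowest, and a gene with 3 counts stood at 0.138 to 0.420 CPM (counts scaled to a library size of 1000000, after TMM, a normalization for library makeup, which all CPM values here use unless said otherwise). Without molecular identifiers on the reads, this limit reflects counting error alone. Ybx1 itself stood at 235, 523 and 301 CPM in controls 1, 2 and 3 and at 124, 54.5 and 9.51 CPM in Ybx1-KO 1, 2 and 3, and the groups did not overlap. The library labelled Ybx1-KO 1 thus kept 52.9% of the lowest control level of the deleted gene, against 23.2% in Ybx1-KO 2 and 4.05% in Ybx1-KO 3. Counts per gene do not show which part of the transcript they come from. With Ybx1-KO 1 left out, the fitted log2 fold changes of Id3, Msx1 and Msx2 were 0.98, 1.44 and 1.72. With all libraries they were 2.15, 1.88 and 1.92. Ybx1-KO 3 stood apart from the other libraries. It had 8.24 read pairs outside genes for each count on a gene, against 1.41 to 2.00 elsewhere, and 1729 olfactory, vomeronasal and taste receptor genes together took 4554 CPM of its plain library total, against 22.5 to 95.9. Control 2 stood apart from the other controls: the 39 Hox genes, which mark the hindbrain and spinal cord, summed to 1051 CPM in it and to 128 and 320 CPM in controls 1 and 3, against 666 to 1362 CPM in Ybx1-KO NPCs. The progenitor markers (Sox2 among them) summed to 1336 to 1532 CPM in controls and 1006 to 1705 CPM in Ybx1-KO, so the labelled cell type was present in all libraries. In bulk RNA, fewer cells of a type and less RNA per cell cannot be told apart.

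None of the 8 genes that were tested passed the test between genotypes, and Bmp6 and Chrd were too low to be tested. The clearest differences were in the response genes. Id3, Msx1 and Msx2 were higher in every Ybx1-KO library than in every control library, with fitted differences of 1.88 to 2.15 on the log2 scale. Msx3 was high in all Ybx1-KO libraries and also in control 2. The ligands went separate ways: Gdf7 was high in Ybx1-KO 2 and 3 alone, Bmp7 differed little, and Bmp4 was lowest in Ybx1-KO 1.

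Of the 10 genes, 8 entered the test, which took genes with a mean FPKM above 1 in either genotype. FPKM here is CPM of the plain library total, without TMM, per kilobase of exon. Bmp6 and Chrd lay below the limit of 1 FPKM, and Gdf7 passed only through its Ybx1-KO mean. At an adjusted p under 0.05 and a fold change above 1.5, edgeR called 0 of 21326 genes higher and 0 lower (0% each). The lack of a call is thus not particular to these 8. DESeq2 called 1 of them, Id3, and over all genes 99 higher (0.464%) and 81 lower (0.38%), and limma-voom called 0 of all genes (0%). At an unadjusted p under 0.05, 4 of the 8 (Gdf7, Id3, Msx1 and Msx2) were higher and 0 lower, where 6.96% of all tested genes were higher and 4.26% lower. Groups without overlap in the higher direction were found for 3 of the 8, where 4.99% of all tested genes had them, and in the lower direction for 0 of the 8, where 8.16% had them. The fitted log2 fold change was positive for 7 of the 8, against 61.3% of all tested genes, and its median was 1.66 against 0.31. Gdf7 is included in the 4, in the 7 and in the median, although its entry through the Ybx1-KO mean favoured a higher value. These counts describe genes that were chosen with earlier results of the same libraries known.

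**Figure D1:**
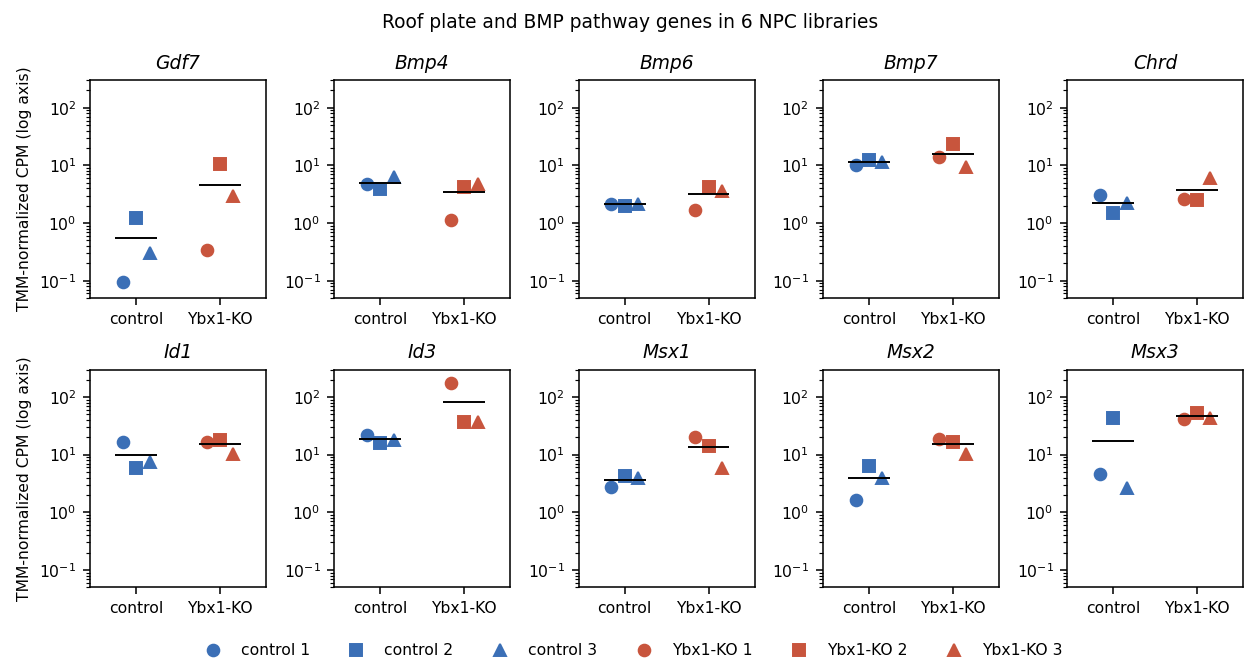
TMM-normalized CPM on a log axis for each of the 10 genes in the 3 control (blue) and 3 Ybx1-KO (red) libraries; symbols are single libraries and bars are group means. The red points lie above all blue points for Id3, Msx1 and Msx2, and for Msx3 control 2 (43.8 CPM) lies among the red points.

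The genes differed widely in level per exon length. In controls the mean FPKM was highest for Id3 at 9.99 ± 2.20 (SD, n = 3), then Id1 at 8.26 ± 5.32, Msx3 at 6.63 ± 8.89, Bmp7 at 2.68 ± 0.155 and Bmp4 at 2.10 ± 0.489. Below these came Msx2 at 1.13 ± 0.632, Msx1 at 1.11 ± 0.187, Bmp6 at 0.513 ± 0.0522, Gdf7 at 0.352 ± 0.388 and Chrd at 0.346 ± 0.143 FPKM. Most neighbours in this order lay within each other's spread, with gaps larger than the sum of their SDs only between Msx1 and Bmp6. In Ybx1-KO NPCs the order was Id3 at 49.7 ± 46.4, Msx3 at 21.1 ± 6.16, Id1 at 13.4 ± 1.91, Msx2 at 4.81 ± 1.18 and Msx1 at 4.37 ± 2.17 FPKM. Bmp7 at 3.82 ± 0.471, Gdf7 at 2.95 ± 2.62, Bmp4 at 1.71 ± 1.36, Bmp6 at 0.889 ± 0.481 and Chrd at 0.738 ± 0.648 FPKM followed. Library by library, both Msx1 and Msx2 stood above both Bmp4 and Bmp7 in Ybx1-KO 1 alone.

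**Figure D2:**
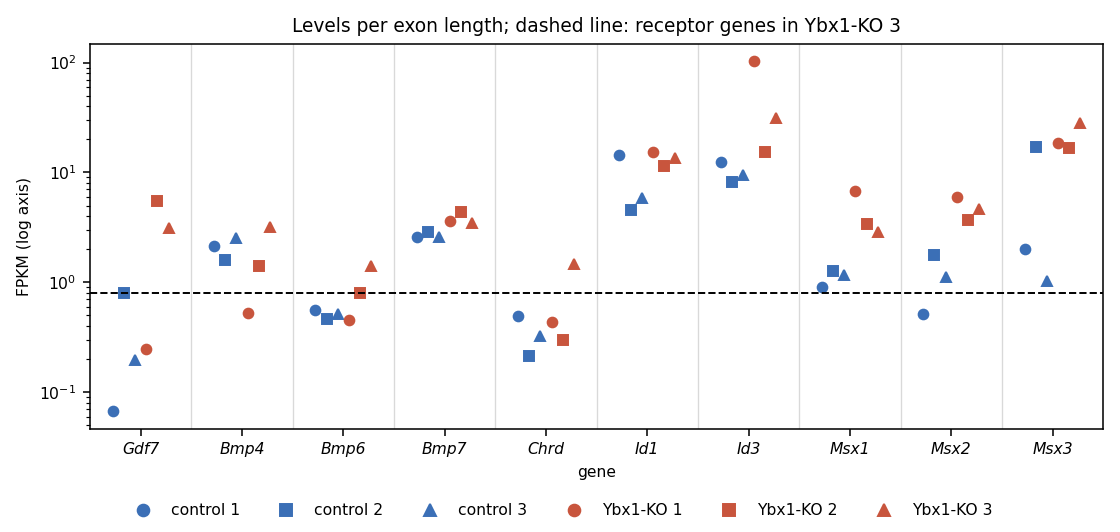
FPKM of the 10 genes in each library on a log axis, controls in blue and Ybx1-KO in red, with a dashed line at 0.797 FPKM, the pooled level of the receptor genes in Ybx1-KO 3. Among the points of Ybx1-KO 3, Chrd and Bmp6 lie closest above the line, and Id3 and Msx3 lie far above it.

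Gdf7 encodes a BMP family ligand made by the roof plate and is one of the genes by which that strip of cells is recognised. It had 2, 27 and 6 counts in controls 1, 2 and 3, or 0.0944, 1.24 and 0.300 CPM, and 3, 104 and 21 counts in Ybx1-KO 1, 2 and 3, or 0.335, 10.6 and 2.94 CPM. The groups overlapped: Ybx1-KO 1 lay below control 2, and 2 of the 6 libraries had no more than 3 counts. The log2 fold change was 3.07 (SE 1.41), the largest among the 8 tested, with an adjusted p of 0.444 and a two-sided exact permutation p of 0.2, where 0.1 is the smallest that 3 against 3 allows. Without Ybx1-KO 2, which held most of the Ybx1-KO counts, the log2 fold change was 1.56, and without control 2 it was 4.50.

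Bmp4 encodes a ligand that both the roof plate and tissue beside the neural tube produce. Its level was 4.77, 3.92 and 6.20 CPM in the controls and 1.12, 4.29 and 4.76 CPM in Ybx1-KO 1, 2 and 3. Ybx1-KO 2 and 3 lay within the control range and Ybx1-KO 1, with 10 counts, lay under it. This gave a log2 fold change of -0.55 (SE 0.843, adjusted p = 0.766, exact permutation p = 0.4), and without Ybx1-KO 1 it was -0.15. The exons of Bmp4 overlap those of Gm15217 on the other strand, which had 0, 6 and 0 counts in controls and 0, 0 and 25 in Ybx1-KO, so the 34 counts of Bmp4 in Ybx1-KO 3 are uncertain.

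Bmp7 encodes a ligand that pairs with other BMPs and is made in the roof plate and in many other embryonic tissues. It stood at 10.2, 12.6 and 11.3 CPM in the controls and at 13.8, 23.8 and 9.23 CPM in Ybx1-KO 1, 2 and 3. Ybx1-KO 1 and 2 lay above all controls and Ybx1-KO 3 below them, for a log2 fold change of 0.46 (SE 0.462, adjusted p = 0.641, exact permutation p = 0.6). The place of Ybx1-KO 3 depended on the scaling. Divided by the library total alone, Bmp7 reached 3.46 FPKM in Ybx1-KO 3, above the 2.58 to 2.85 FPKM of the controls, and the groups then did not overlap. At the density of counts over receptor genes in Ybx1-KO 3, 15.2 of its 66 Bmp7 counts would be present at this background. That figure takes the background as even over genes, which it need not be. The separation under that scaling is therefore uncertain. Without Ybx1-KO 2 the log2 fold change was 0.024.

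Bmp6, a ligand known from bone and iron regulation and also found at the dorsal midline, was too low to be tested. It stood at 2.17, 1.98 and 2.15 CPM in the controls, a narrow range, and at 1.67, 4.29 and 3.64 CPM in Ybx1-KO 1, 2 and 3. Ybx1-KO 1 lay under the controls and the other 2 above them (exact permutation p = 0.4). With a filter on counts that kept it, the log2 fold change was 0.66 (SE 0.870, adjusted p = 0.840). Bmp6 shares exon sequence with Txndc5 on the other strand, which had 144 to 539 counts, and the strand setting of the counting is not given in the sources used here.

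The mix of the 4 ligands was set out within each library, where the scaling between libraries does not enter. Gdf7 made up 1.26%, 14.0% and 3.34% of the summed FPKM of the 4 ligands in controls 1, 2 and 3, and 5.11%, 45.5% and 27.9% in Ybx1-KO 1, 2 and 3. Bmp4 made up 40.2%, 27.8% and 43.6% in the controls and 10.8%, 11.6% and 28.6% in Ybx1-KO. Its share was under the lowest control in Ybx1-KO 1 and 2 and between the controls in Ybx1-KO 3. Bmp7 was the leading ligand in all 3 controls, at 44.3% to 50.1%, and took 74.8%, 36.1% and 31.0% in Ybx1-KO.

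Chrd encodes chordin, an antagonist that holds BMP ligands away from their receptors until proteases cleave it. Its level was 3.07, 1.47 and 2.20 CPM in the controls and 2.57, 2.56 and 6.16 CPM in Ybx1-KO 1, 2 and 3, below the limit for testing. Ybx1-KO 1 and 2 lay inside the control range, and Ybx1-KO 3 alone lay above it (exact permutation p = 0.4). At the density of counts over receptor genes in Ybx1-KO 3, 23.7 of the 44 Chrd counts in that library would be present at this background. For Bmp6 this figure was 14.7 of 26 counts and for Msx1 11.7 of 42. These figures take the background as even over genes, which it need not be. Bmp2 had 1 count in Ybx1-KO 3, or 0.0593 FPKM, against 0.797 FPKM pooled over the receptor genes. Chrd also shares exon sequence with Thpo on the other strand, which had 62 counts in Ybx1-KO 3 and 0 to 15 in the other libraries. With a filter on counts that kept Chrd, the log2 fold change was 0.81 (SE 0.862, adjusted p = 0.802).

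The Id genes encode small proteins that bind basic helix-loop-helix factors and keep them off DNA, and their transcription is a direct response to BMP-activated Smads. Id3 stood at 21.9, 16.0 and 18.3 CPM in controls 1, 2 and 3 and at 174, 37.3 and 37.2 CPM in Ybx1-KO 1, 2 and 3. All Ybx1-KO libraries lay above all controls, and Ybx1-KO 1 lay far above the other 2. The log2 fold change was 2.15 (SE 0.541), or 4.43-fold, with an unadjusted p of 0.00104 and an adjusted p of 0.267, the lowest among the 8 tested. The exact permutation p was 0.1, the smallest this design allows. The size of the difference rested in part on Ybx1-KO 1: without it the log2 fold change was 0.98 (adjusted p = 0.222), without Ybx1-KO 2 it was 2.50 (adjusted p = 0.00267) and without Ybx1-KO 3 it was 2.49 (adjusted p = 0.0387). DESeq2 called Id3 higher (log2 fold change 2.21, adjusted p = 0.0296).

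Id1 stood at 16.4, 5.81 and 7.35 CPM in the controls and at 16.9, 18.2 and 10.4 CPM in Ybx1-KO 1, 2 and 3. Ybx1-KO libraries were level with or above controls apart from Ybx1-KO 3, which lay under control 1. Its log2 fold change was 0.62 (SE 0.504, adjusted p = 0.562, exact permutation p = 0.2). Id3 made up 46.4%, 64.1% and 61.7% of the summed FPKM of Id1 and Id3 in the controls and 87.0%, 57.0% and 70.0% in Ybx1-KO, so in Ybx1-KO 1 Id3 was high relative to Id1 and in Ybx1-KO 2 it was not.

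Msx1, Msx2 and Msx3 encode homeodomain transcription factors of the dorsal neural tube. Msx1 and Msx2 mark the roof plate and the dorsal midline of the brain, respond to BMP and are also used in neural crest, skin and limb, whereas Msx3 is restricted to the dorsal neural tube behind the forebrain. Ybx1 is named after the Y box, a promoter element that holds the inverted CCAAT sequence, so the 250 bases before the RefSeq start sites (GRCm38.p6) were searched for CCAAT on both strands. A window was found for 8 of the 10 genes. CCAAT was in the windows of Msx1, with 2 matches, and of Msx2 and Msx3, with 1 match each, and not in those of Gdf7, Bmp4, Bmp6, Chrd and Id3. Of 32851 mouse windows of this length, 33.8% held it. The sequence GGCGCC, known from Smad-responsive promoters, was in the window of Chrd alone, against 9.59% of all windows. The 4 CCAAT matches are shown with 12 bases on either side, 5′ to 3′ on the strand of the gene, with CCAAT or its complement ATTGG in capitals.
Msx1, chr5:37824660-37824688, minus strand, match from base -91 relative to the start: cacgagcacagcCCAATggttctctccgg
Msx1, chr5:37824623-37824651, minus strand, match from base -54 relative to the start: cctcgcgctctgATTGGccgctgccacgc
Msx2, chr13:53472888-53472916, minus strand, match from base -124 relative to the start: ctccagggagagCCAATcggtggcgagcg
Msx3, chr7:140049134-140049162, minus strand, match from base -62 relative to the start: gctgaaacaaccATTGGgtagcggcgcat

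The full windows of Msx1 and Msx3, which lie at the starts of the annotated genes, are given below the same way to show where the matches sit. The windows of Msx2, Bmp6 and Id3 lie inside a first exon as GENCODE places their starts, so they are not the sequence before that start, and the Msx2 window is not shown beyond its match.
Msx1, chr5:37824586-37824835, minus strand: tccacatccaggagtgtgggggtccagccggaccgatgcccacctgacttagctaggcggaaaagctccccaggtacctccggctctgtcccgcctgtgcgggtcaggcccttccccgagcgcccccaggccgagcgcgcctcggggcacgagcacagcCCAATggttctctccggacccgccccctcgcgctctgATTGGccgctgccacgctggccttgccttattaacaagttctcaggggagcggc
Msx3, chr7:140049089-140049338, minus strand: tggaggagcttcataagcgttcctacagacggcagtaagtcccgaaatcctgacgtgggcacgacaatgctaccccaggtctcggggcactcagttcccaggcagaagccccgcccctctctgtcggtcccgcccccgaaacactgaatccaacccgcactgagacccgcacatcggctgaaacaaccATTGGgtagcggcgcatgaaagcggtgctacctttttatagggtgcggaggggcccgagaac

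A match of 5 letters is a description of the window and not evidence that any factor sits there, and no binding data were used here. Msx1 lies on chromosome 5 at 37820485 to 37824583, Msx2 on chromosome 13 at 53466884 to 53473074 and Msx3 on chromosome 7 at 140046157 to 140049089, all on the minus strand of GRCm38 in GENCODE M21. The remaining genes lie on other chromosomes, apart from Bmp6, which shares chromosome 13 with Msx2 but lies at 38345107 to 38500302.

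Msx1 stood at 2.74, 4.29 and 3.90 CPM in controls 1, 2 and 3 and at 20.1, 14.3 and 5.88 CPM in Ybx1-KO 1, 2 and 3. All Ybx1-KO libraries lay above all controls, with Ybx1-KO 3 nearest to them. The log2 fold change was 1.88 (SE 0.587), or 3.69-fold, with an unadjusted p of 0.00529 and an adjusted p of 0.381, and the exact permutation p was 0.1. Msx2 stood at 1.65, 6.40 and 3.95 CPM in the controls and at 18.8, 16.5 and 10.2 CPM in Ybx1-KO. The groups were again separate, with 10.2 CPM in the lowest Ybx1-KO library against 6.40 CPM in the highest control, control 2. The log2 fold change was 1.92 (SE 0.583), or 3.78-fold, with an unadjusted p of 0.00443, an adjusted p of 0.365 and an exact permutation p of 0.1. Neither gene rested on Ybx1-KO 3: without it the log2 fold changes were 2.22 for Msx1 and 2.12 for Msx2, with adjusted p values of 0.104 and 0.149.

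Msx3 stood at 4.63, 43.8 and 2.60 CPM in controls 1, 2 and 3 and at 41.0, 53.6 and 43.9 CPM in Ybx1-KO 1, 2 and 3. The 3 Ybx1-KO libraries were close together, and control 2 lay among them while controls 1 and 3 lay far below. The log2 fold change was 1.44 (SE 0.716, adjusted p = 0.450, exact permutation p = 0.2). Control 2 lowered the difference, which was 3.67 without it, with an adjusted p of 0.00151. Without control 1 it was 1.01 and without control 3 it was 0.93. In controls Msx3 made up 58.6%, 84.8% and 30.9% of the summed Msx FPKM, and in Ybx1-KO 58.8%, 70.2% and 78.8%.

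**Figure D3:**
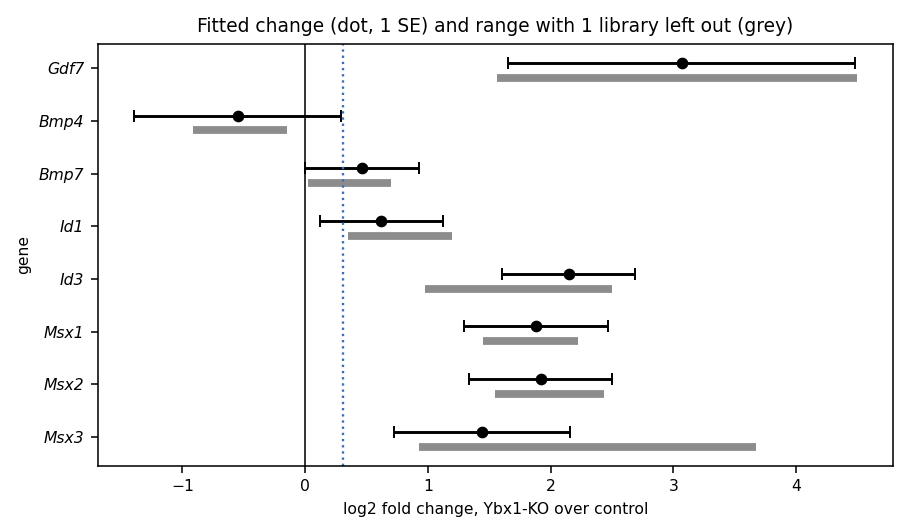
Fitted log2 fold change of the 8 tested genes, Ybx1-KO over control (dot, with bars of 1 SE), and the range when each library was left out in turn (grey); the dotted line is the median of all tested genes, 0.31. The grey range is widest for Gdf7 and Msx3, and no range crosses 0.

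The Msx genes were set beside the Hox genes, since control 2 stood apart in both. Summed Hox CPM was 128, 1051 and 320 in controls 1, 2 and 3 and 1314, 1362 and 666 in Ybx1-KO 1, 2 and 3, so control 2 lay above Ybx1-KO 3. Msx3 was high in the 4 libraries with the highest Hox sums, control 2 included. Msx1, Msx2 and Id3 in control 2 were at 4.29, 6.40 and 16.0 CPM, below every Ybx1-KO library. In control 2 both Msx1 and Msx2 were above the other controls, and Id3 was below them. Set against control 2 alone, the lowest Ybx1-KO library was at 5.88 CPM for Msx1, 10.2 CPM for Msx2 and 37.2 CPM for Id3. With 1 control of this kind, the genotype could not be tested at a matched Hox level. The part of regional makeup in the Msx and Id3 differences was not tested.

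**Figure D4:**
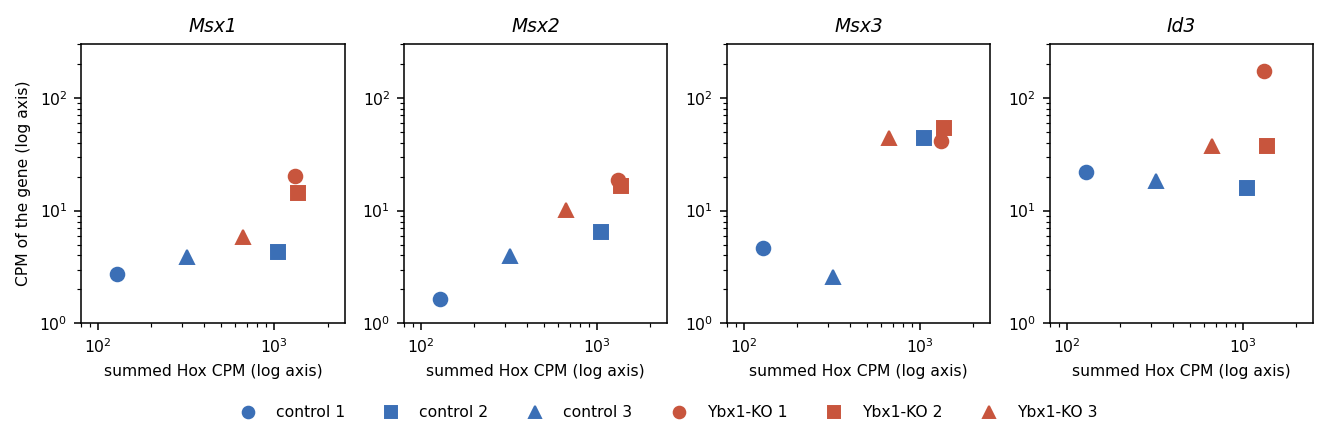
CPM of Msx1, Msx2, Msx3 and Id3 in each library against the summed CPM of 39 Hox genes, both on log axes, controls in blue and Ybx1-KO in red. Control 2 (blue square, summed Hox 1051 CPM) lies with the Ybx1-KO libraries for Msx3 and below them for Msx1, Msx2 and Id3.

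Markers of other cells moved between libraries too. Choroid plexus markers (7 genes) summed to 724, 43.5 and 972 CPM in controls 1, 2 and 3 and to 53.2, 62.7 and 57.1 CPM in Ybx1-KO 1, 2 and 3. The choroid plexus is itself derived from the dorsal midline of the brain. Mesenchyme and meninges markers (10 genes) summed to 171 to 916 CPM in controls and 95.1 to 158 CPM in Ybx1-KO, with control 2 (171 CPM) near Ybx1-KO 2 (158 CPM). Mesenchyme also uses Msx1, Msx2 and Bmp4. Neural crest markers (8 genes), from another Msx-expressing tissue, summed to 280, 613 and 287 CPM in controls and 617, 559 and 292 CPM in Ybx1-KO. All 8 were tested: 6 were higher, 3 of them without overlap, 2 were lower, 3 were higher at an unadjusted p under 0.05, and none was called. Over all tested genes 61.3% were higher, 4.99% were higher without overlap and 6.96% were higher at that p. The median log2 fold change of the list was 0.40, against 0.31 over all tested genes. Foxd3, a neural crest transcription factor chosen here after its values were seen, stood at 0.90, 4.24 and 0.60 CPM in controls and 28.8, 17.4 and 8.25 CPM in Ybx1-KO (log2 fold change 3.24, adjusted p = 0.209). It is 1 gene picked from the 8 and does not stand for the list, in which 2 genes were lower and the summed levels overlapped. Surface ectoderm markers (8 genes) ranged from 25.1 to 42.0 CPM and from 25.2 to 52.3 CPM, endothelial markers (6 genes) from 22.6 to 47.8 CPM and from 12.5 to 59.0 CPM, macrophage markers (4 genes) from 7.33 to 23.3 CPM and from 3.35 to 21.5 CPM, and neuron markers (6 genes) from 2777 to 4081 CPM and from 1088 to 2953 CPM, in controls and Ybx1-KO in turn. The notochord markers T and Noto summed to at most 0.350 CPM in controls and reached 4.06 CPM in Ybx1-KO 3, with both at 0 in Ybx1-KO 1. None of these lists had all its genes at 0 in a library, apart from the notochord list. The part of these cells in the results was not tested.

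Beyond the 10 genes, 62 further genes of the pathway and of the dorsal neural tube were read from fixed lists, of which 44 were tested. None of the 44 was called, 22 were higher and 22 lower in Ybx1-KO, 5 were higher and 4 lower without overlap, and the median log2 fold change was 0.037. Over all tested genes, 61.3% were higher, 4.99% were higher and 8.16% lower without overlap, and the median was 0.31. The counts depend on the filter: 8 of the 44 passed it only through the Ybx1-KO mean (Bmp5, Hfe2, Eng, Grem1, Cer1, Tll2, Smad6 and Wnt1, of which 7 were among the higher) and 3 only through the control mean (Bmp3, Gdf10 and Bmper, all among the lower).

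Among the other ligands, 3 of 10 were tested, all 3 with negative log2 fold changes and overlapping groups. Bmp3 and Gdf10 passed the filter only through the control mean, which favoured a negative value, and Bmp5 was at -0.023. Their shared sign is therefore not read as a trend. Bmp2, a ligand close to Bmp4, was below the limit for testing but was lower in every Ybx1-KO library than in every control: it had 33, 34 and 34 counts in the controls (1.56, 1.57 and 1.70 CPM) and 0, 0 and 1 in Ybx1-KO. The floor of 3 counts equals 0.335 CPM in Ybx1-KO 1 and 0.307 CPM in Ybx1-KO 2, under the control level. With a filter on counts that kept Bmp2, the adjusted p was 0.475.

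Receptors and Smads carry the signal from the ligands to the response genes. Of 11 receptors and co-receptors, 10 were tested, 6 higher and 4 lower, with a median log2 fold change of 0.19. The highest value was that of the co-receptor gene Hfe2, named here after its values were seen, at 0.614, 0.415 and 0.150 CPM in controls and 0, 2.45 and 6.44 CPM in Ybx1-KO, with overlap (log2 fold change 2.88, adjusted p = 0.467). Hfe2 and Eng, both among the 6 higher, passed the filter only through the Ybx1-KO mean, which favoured a higher value. Acvr1, a type I receptor for BMPs, stood at 31.3, 19.6 and 21.3 CPM in controls and 9.49, 16.5 and 14.0 CPM in Ybx1-KO, without overlap (log2 fold change -0.85, SE 0.414, adjusted p = 0.448). The 3 tested Smads of 4 had negative values with a median of -0.35 and overlapping groups. Smad5, a BMP-activated Smad, was at 99.1, 111 and 89.2 CPM in controls and 86.5, 101 and 38.3 CPM in Ybx1-KO, and Smad4, the partner shared with other pathways, at 74.0, 71.8 and 67.6 CPM and at 67.8, 67.3 and 38.1 CPM. For both, Ybx1-KO 3 alone was far below the rest.

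Secreted antagonists other than Chrd were split, with 5 higher and 4 lower of 9 tested out of 13. Fst encodes follistatin, which binds activins and some BMPs, and stood at 4.63, 6.40 and 4.05 CPM in controls and 33.7, 15.2 and 6.72 CPM in Ybx1-KO, without overlap (log2 fold change 1.88, SE 0.572, adjusted p = 0.365). Without Ybx1-KO 1 the value for Fst was 1.10, and its groups overlapped in 3 of 16 other settings: no filter, the CPM filter and background subtraction. Sostdc1, an antagonist of BMP and WNT signals, pointed the other way at 8.83, 2.03 and 16.5 CPM in controls and 0.112, 3.99 and 1.68 CPM in Ybx1-KO, with overlap (log2 fold change -2.23, adjusted p = 0.444, and -1.49 without control 3 or -3.37 without Ybx1-KO 2). Fstl1, a follistatin-like protein, had a log2 fold change of -0.99 with overlap, and its adjusted p was 0.444. Chrdl1, a chordin-like antagonist below the limit for testing, was at 5.67, 4.52 and 5.15 CPM in controls and 2.34, 2.25 and 2.38 CPM in Ybx1-KO, without overlap. Of the 5 genes whose products modify chordin, 4 were tested, 1 higher and 3 lower. Bmper, a secreted BMP-binding protein, stood at 9.78, 5.11 and 9.35 CPM against 0.335, 4.19 and 3.08 CPM, and Twsg1, which binds chordin and BMPs, at 82.3, 74.0 and 76.0 CPM against 60.3, 70.9 and 49.2 CPM. Both were lower in every Ybx1-KO library, with log2 fold changes of -1.67 (adjusted p = 0.450, and -2.26 without Ybx1-KO 2) and -0.36 (adjusted p = 0.641).

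Of 6 other BMP response genes, 4 were tested, 2 higher (Smad6 and Smad7) and 2 lower (Id2 and Id4), with a median log2 fold change of -0.054. Id2 stood at 89.9, 18.6 and 56.0 CPM in controls and 32.8, 23.6 and 23.9 CPM in Ybx1-KO, with control 2 the lowest of all (log2 fold change -1.03, SE 0.478, adjusted p = 0.444). Smad6, an inhibitory Smad that BMP signals induce, stood at 1.42, 2.21 and 1.80 CPM in controls and 2.23, 2.86 and 3.64 CPM in Ybx1-KO. As for Id3, the Ybx1-KO libraries lay above all controls, here by a narrow margin, and the log2 fold change of 0.68 had an SE of 1.12 and an adjusted p of 0.782. Smad6 entered the test only through its Ybx1-KO mean of 1.03 FPKM, and Ybx1-KO 3 alone was above 1 FPKM.

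Several other roof plate genes were high in Ybx1-KO libraries, but not the list as a whole: of 9 genes 7 were tested, 4 higher and 3 lower, with a median log2 fold change of 0.081. Lmx1a, the transcription factor that specifies roof plate, stood at 5.29, 9.72 and 4.60 CPM in controls and 63.7, 12.4 and 13.0 CPM in Ybx1-KO, without overlap (log2 fold change 2.18, SE 0.602, adjusted p = 0.315). Its highest library was Ybx1-KO 1, as for Id3 and Msx1, and without it the log2 fold change was 0.95. Wnt1, a dorsal midline WNT ligand, had 34, 40 and 0 counts in controls, or 1.61, 1.84 and 0 CPM, and 7.59, 25.8 and 6.44 CPM in Ybx1-KO (log2 fold change 3.52, SE 1.01, adjusted p = 0.350). It entered the test only through its Ybx1-KO mean, and without Ybx1-KO 2 the log2 fold change was 2.60. Its highest library was Ybx1-KO 2, as for Gdf7. Rspo1, a secreted enhancer of WNT signals, stood at 2.88, 2.21 and 5.85 CPM against 19.6, 12.8 and 5.74 CPM, with overlap (log2 fold change 1.80, SE 0.627, adjusted p = 0.413). Zic4, a zinc finger gene of dorsal neural tissue, pointed the other way at 62.9, 64.3 and 72.4 CPM against 22.2, 61.6 and 27.0 CPM, without overlap (log2 fold change -0.85, adjusted p = 0.450, and -1.43 without Ybx1-KO 2). The margin for Zic4 was narrow, 62.9 against 61.6 CPM, and its groups stayed separate in 13 of 16 other settings.

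The 4 genes of dorsal progenitors next to the roof plate (Pax3, Pax7, Olig3 and Atoh1) were all tested and all had positive log2 fold changes, with a median of 0.92. Atoh1, the transcription factor of the progenitors bordering the roof plate, stood at 2.79, 3.41 and 1.45 CPM in controls and 4.47, 5.11 and 7.14 CPM in Ybx1-KO, without overlap (log2 fold change 1.12, SE 0.832, adjusted p = 0.534). The list sum was 44.9, 131 and 34.4 CPM in controls and 140, 125 and 81.3 CPM in Ybx1-KO, and control 2 again lay among the Ybx1-KO libraries, as for Msx3.

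**Figure D5:**
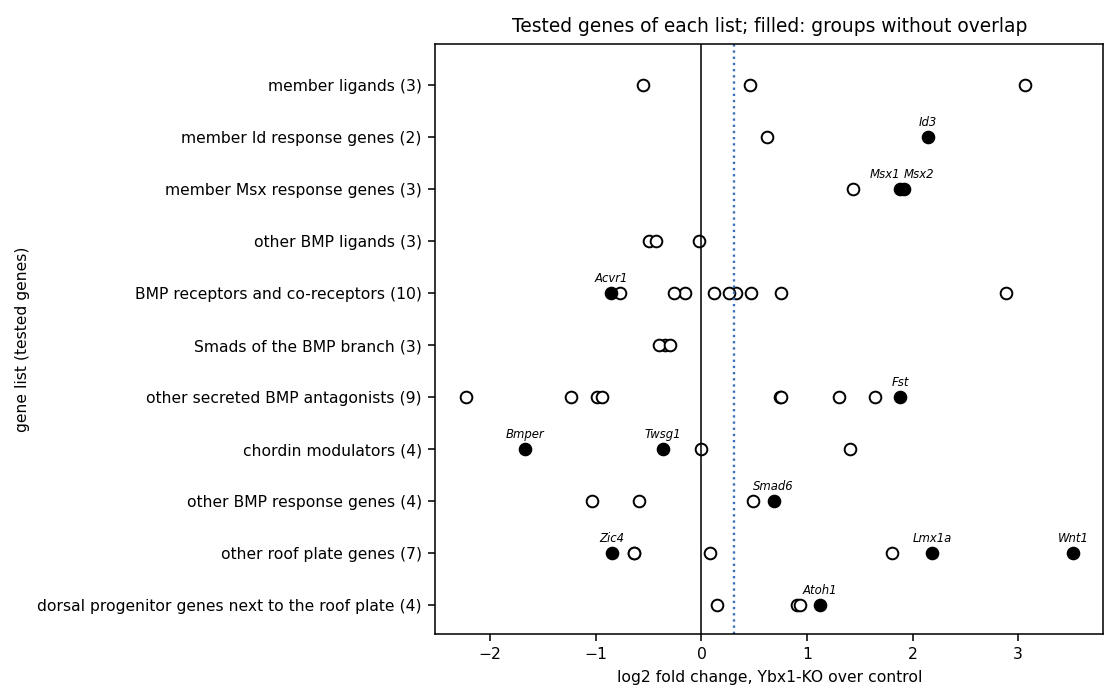
Fitted log2 fold change, Ybx1-KO over control, of each tested gene by list, with the number tested in parentheses; filled points are genes whose groups did not overlap, and the dotted line is the median of all tested genes, 0.31. The Msx row lies wholly above the dotted line, while the receptors, antagonists and response genes spread to both sides of 0.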

How the data were processed

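Total RNA of Sox2-positive NPCs was sequenced as stranded paired-end libraries on 1 of 2 HiSeq models, with no record of which library ran on which. The authors counted read pairs on GENCODE genes with HTSeq 0.6.1p1 and deposited raw counts per gene symbol, 1 table per library, without normalization. The submitters' processing notes name mm10, GRCm38.p5 and CASAVA, and the aligner and strand setting are not given in the sources used here, so counts of overlapping genes on opposite strands are uncertain. The closing tallies of each table (read pairs outside genes, ambiguous, unaligned) stayed out of library sizes and tests. Groups came from the genotype labels.

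Counts were analysed in R 4.3.3 with edgeR 4.0.16 (TMM, quasi-likelihood test, Benjamini-Hochberg adjustment over 21326 genes with mean FPKM above 1 in either group). FPKM used the library total on genes and union exon lengths of GENCODE M21 on GRCm38. Exon lengths were found for 47624 of 51733 symbols directly and for 359 through older symbols, and 3750 stayed unmatched. A call needed an adjusted p under 0.05 and a fold change above 1.5. Single genes were also compared by two-sided exact permutation tests on log2(CPM + 0.5). Depth ran from 4743279 to 23883542 counts, with a floor of 3 counts. Promoter windows came from a RefSeq table. Alternatives were limma-voom (limma 3.58.1), DESeq2 1.42.0, other scalings, filters and dispersion, and leaving out each library. Another 3 settings were added after seeing the data: a TMM-scaled FPKM filter, subtraction of the receptor gene background, and the FPKM filter applied again without Ybx1-KO 3. The methods were tested on simulated data. Figures used matplotlib 3.10.9 in Python 3.11.15.

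The 10 genes and all gene lists were chosen with earlier results of these data known. From each pathway list, genes with an unadjusted p under 0.05 or without overlap were named, at most 4 a list in order of p, or, where a list had none, the 2 with the highest mean CPM. A further marker list is not reported here.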

Additional observations from a re-analysis of the deposited data

Results flagged for a closer look

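The tallies of read pairs outside genes, which the comparisons above do not use, were far higher in Ybx1-KO 3 than in the controls: 8.24 such pairs for each count on a gene, against 1.52 to 2.00 in controls. The 2 other Ybx1-KO libraries had 1.41 and 1.79. In the same library 39553 genes had counts, against 19649 to 30482 in the others. Without Ybx1-KO 3 the log2 fold changes of Id3, Msx1 and Msx2 were 2.49, 2.22 and 2.12. The part of this library in the other results was not tested beyond the values given.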

How the results depend on the processing

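The direction of the fitted change was the same for all 8 tested genes in every alternative that gave a value (144 values, 0 reversed). Id3, Msx1 and Msx2 were higher without overlap in 16 of 16 settings with their own normalized values. Leaving out a library cannot bring separate groups to overlap, apart from the rescaling, and robust dispersion leaves the values unchanged. Those settings therefore do not test the separation. Among the pathway genes named as separate, the groups were without overlap in 13 of these 16 settings for Fst and Zic4 and in 14 for Smad6. For Acvr1, Twsg1 and Lmx1a this number was 15, and for Bmp2, Chrdl1, Bmper, Wnt1 and Atoh1 it was 16. The number of the genes called, 0 above, was 1 (Id3) with DESeq2 and 1 with no filter on low values (Id3, adjusted p = 0.0171), and 0 to 1 with a library left out: 1 without control 2 (Msx3), 1 without Ybx1-KO 2 (Id3) and 1 without Ybx1-KO 3 (Id3). The number without overlap, 3 above, was 5 with the FPKM filter applied again without the third Ybx1-KO library, and 3 to 6 with a library left out, with 6 without control 2, 5 without Ybx1-KO 1 and 5 without Ybx1-KO 3. The share of all tested genes without overlap, 13.1% above, was 30.3% with that filter and 20.1%, 24.7% and 25.2% without these libraries. The share rose with every library left out, from 16.3% without control 1 to 26.2% without Ybx1-KO 2. With fewer libraries, fewer values have to lie apart, so these counts cannot be set against the 3 found with all libraries. Lmx1a passed with no filter (adjusted p = 0.0179) and without Ybx1-KO 2 (adjusted p = 0.00412), and Wnt1 with no filter (adjusted p = 0.00223). Over the whole table, calls numbered 99 higher and 81 lower with DESeq2, 113 and 80 with no filter, 29 and 42 without control 2, 17 and 11 without Ybx1-KO 1, 283 and 136 without Ybx1-KO 2, 27 and 19 without Ybx1-KO 3, and 0 in the other settings run. With edgeR as above 2393 genes had an unadjusted p under 0.05, with limma-voom 1655 and with DESeq2 2817. Scaling by the library total moved the median log2 fold change of all tested genes from 0.31 to 0.51, and leaving out Ybx1-KO 3 moved it to -0.066, with the share of higher genes at 68.4% and 40.1% against 61.3%. No paired analysis was possible because the labels give no number that a control shares with a Ybx1-KO library. Within groups, controls 1 and 2 and Ybx1-KO 1 and 2 share the first number of their titles, and what that number stands for is not stated. The depth of Ybx1-KO 3 and the low counts of Gdf7, Bmp6 and Chrd limit what could be detected.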
